A study of Homo sapiens with 6 samples.

Results

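The genes of the NF-kappaB transcription factor and of its feedback inhibitors were examined in BT549 cells, a mesenchymal-like human breast cancer cell line, after siRNA knockdown of BNC2 (basonuclin-2, a zinc finger protein). The 10 genes were taken by symbol from a table of 23346 genes: the 5 subunit genes NFKB1, NFKB2, REL, RELA and RELB, the cytoplasmic inhibitors NFKBIA and NFKBIE, the nuclear IkB proteins NFKBIZ and BCL3, and the deubiquitinase TNFAIP3. Each of the 10 was found, and each was among the 12186 genes that exceeded 1 CPM (counts scaled by library size) in 3 or more libraries and were tested. BT549 cells labelled as wild type and grown in RPMI medium with fetal calf serum were transfected with 20 nM of either negative control (NC) siRNA or BNC2 siRNA, given as an equal mix of 3 siRNAs, and poly(A) RNA was sequenced 6 d later. There were 3 libraries per group, described as biological replicates, and both groups carried siRNA, so neither was untransfected. Knockdown was transient and in 1 cell line, which limits what the groups can model.

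NF-kappaB proteins bind DNA as pairs of subunits that share a Rel homology domain. In resting cells IkB proteins such as IkB-alpha (NFKBIA) hold the dimers in the cytoplasm, and signals from cytokine receptors activate IkB kinase (IKK), which marks the IkB proteins for destruction and frees the dimers to enter the nucleus. Genes for several subunits and inhibitors are themselves textbook targets of NF-kappaB, so that the pathway feeds back on its own components. In mesenchymal-like breast cancer cells the pathway is known for driving inflammatory cytokines.

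The libraries held between 16093978 and 18246254 counts. BNC2 itself measured 65.6, 51.5 and 58.6 CPM in the controls (NC siRNA) and 35.5, 36.6 and 41.6 CPM after knockdown, 64.6% of the control level (log2 fold change -0.63, SE 0.09, edgeR quasi-likelihood test, Benjamini-Hochberg adjusted p = 8.2e-06). The 5 mesenchymal markers VIM, CDH2, FN1, ZEB1 and TWIST1 were all among the genes tested, with a summed level of 4056 to 4141 CPM in the NC siRNA and 4921 to 5152 CPM in the BNC2 siRNA libraries. VIM and FN1 made up most of the sum, and for each of the 5 every knockdown library was above every control. Among all genes tested, the groups did not overlap in 74.9%, in either direction, and 36.6% were called higher. CDH2 went from 152 ± 4.03 to 391 ± 5.08 CPM and TWIST1 from 25.2 ± 1.23 to 73.2 ± 3.16 CPM (SD, n = 3). The rises of VIM, ZEB1 and FN1 were smaller, to 113%, 127% and 131% of the control level. Of 5 epithelial markers none reached the filter, and EPCAM and ESRP1 had no count in any library. For the leukocyte markers PTPRC, CD3E, CD14 and CD68, the summed level was 113 to 127 CPM with NC siRNA and 139 to 151 CPM with BNC2 siRNA. CD68, a lysosomal glycoprotein, made up nearly all of it (117 and 144 CPM). CD14, a monocyte receptor of bacterial lipopolysaccharide, had 36, 30 and 23 counts in controls against 12, 9 and 11 after knockdown, and exceeded 1 CPM in controls only, so no test is given for it. PTPRC, the pan-leukocyte marker, had 11 counts in the NC siRNA and 15 in the BNC2 siRNA libraries. Of the 3 endothelial markers PECAM1, CDH5 and VWF none reached the filter and CDH5 was at 0, with summed levels of 0.241 to 0.560 CPM and 0 to 0.407 CPM. The part of the shifts in mesenchymal genes and in CD68 and CD14 in the results on NF-kappaB genes was not tested.

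The siRNAs that separate the groups are shown as their sense strands, 5′ to 3′, with the overhang as listed by the study. The first 19 bases of each BNC2 siRNA matched a coding exon of BNC2 on the minus strand of GRCh37, at chr9:16583000-16583018, chr9:16436834-16436852 and chr9:16419045-16419063 in the order given.
BNC2 siRNA 1: gacuugugaucaguguaaatt
BNC2 siRNA 2: ggaagacauucuaugacaatt
BNC2 siRNA 3: ccucuguacgaagccgaaatt
NC siRNA: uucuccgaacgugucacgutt

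After BNC2 knockdown 9 of the 10 NF-kappaB genes fell, most of all the inhibitors NFKBIE, TNFAIP3 and NFKBIA. NFKBIE, TNFAIP3 and NFKBIA fell 3.91-fold, 2.63-fold and 2.41-fold, RELB, BCL3 and NFKB1 fell 1.64-fold, 1.64-fold and 1.56-fold, and RELA, NFKB2 and NFKBIZ fell 1.26-fold, 1.25-fold and 1.18-fold. REL was the exception, with a mean of 4.29 ± 0.194 CPM in controls and 5.28 ± 1.06 CPM after knockdown (SD, n = 3 each), and was not called. Across all genes tested 36.2% were called lower and 36.6% higher (72.9% called in either direction at an adjusted p of at most 0.05), against 9 lower and 0 higher among these 10. In 9 of the 10 the groups were fully separated, as they were in 74.9% of all genes tested. The median log2 fold change of the 10 was -0.68, beside 0.00 for all genes tested. The falls of RELA, NFKB2 and NFKBIZ were ordinary in size: 30.2%, 30.9% and 35.5% of the genes tested had a lower log2 fold change.

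**Figure D1:**
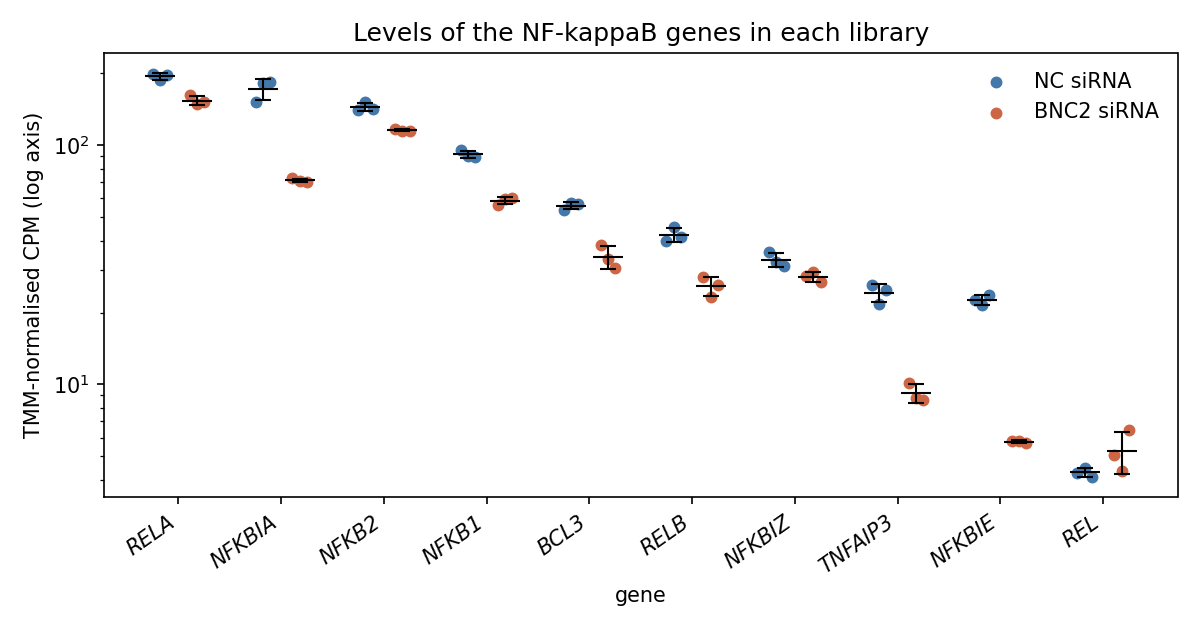
Level of each NF-kappaB gene in each library, as TMM-normalised CPM on a log axis; points are libraries, and the black lines are the mean and SD of 3 libraries. In every gene but REL the BNC2 siRNA libraries lie below the NC siRNA libraries, and in NFKBIE they fall from 22.6 to 5.76 CPM on average.

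**Figure D2:**
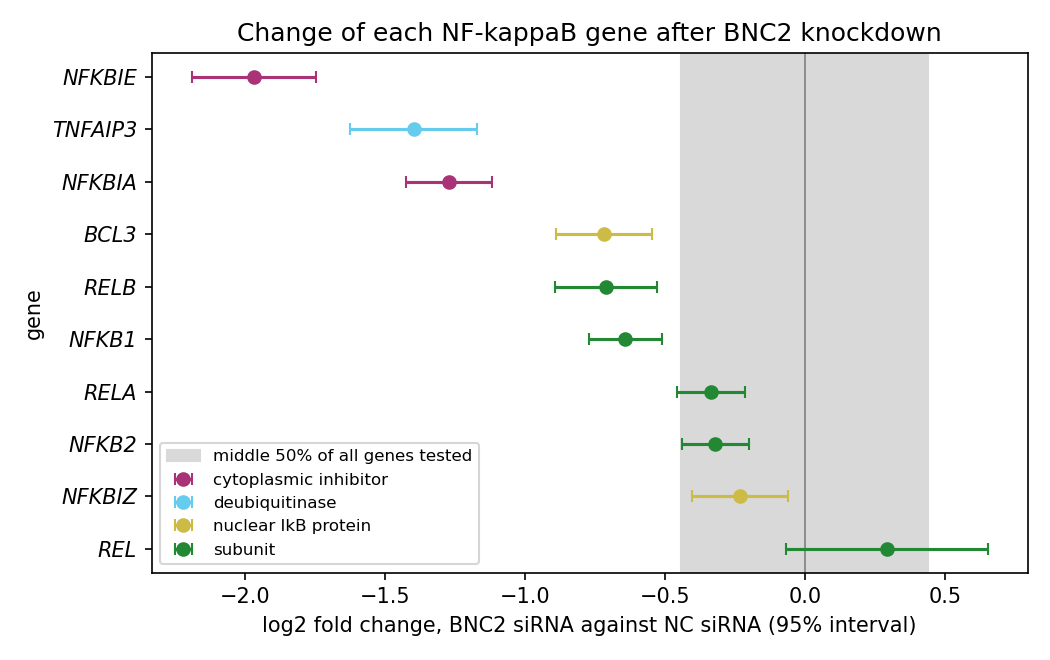
Log2 fold change of each gene (BNC2 siRNA against NC siRNA, edgeR) with its 95% interval, coloured by role; the grey band spans the lower to the upper quartile of all genes tested. NFKBIE, TNFAIP3 and NFKBIA lie farthest to the left, and REL is the only gene whose interval includes 0. The fold changes of RELA, NFKB2, NFKBIZ and REL lie within the grey band.

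RefSeq promoter windows of 300 bases (250 before to 50 after the start site) were available for 8 of the 10 genes. No window was available for RELB or for NFKBIE, the gene with the largest fall. The NF-kappaB consensus motif, searched on both strands, occurred in 6 of these 8 windows, against 11.3% of all 35116 promoter windows of that length. The windows are shown for the inhibitor genes with the best known feedback role, NFKBIA and TNFAIP3, for NFKB1 as a subunit that fell, and for REL as the subunit that was not called. They are written 5′ to 3′ on the strand of the gene, with bases of a motif match in capitals. In GRCh37 they lie at chr14:35873906-35874205 (minus strand), chr6:138188146-138188445 (plus strand), chr4:103422266-103422565 (plus strand) and chr2:61108459-61108758 (plus strand).
NFKBIA: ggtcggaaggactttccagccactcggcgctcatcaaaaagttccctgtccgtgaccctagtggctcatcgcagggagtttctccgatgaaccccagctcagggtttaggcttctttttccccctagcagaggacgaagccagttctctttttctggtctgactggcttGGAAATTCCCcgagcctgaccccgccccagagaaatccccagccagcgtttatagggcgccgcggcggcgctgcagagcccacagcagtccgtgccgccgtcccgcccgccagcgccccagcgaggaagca
TNFAIP3: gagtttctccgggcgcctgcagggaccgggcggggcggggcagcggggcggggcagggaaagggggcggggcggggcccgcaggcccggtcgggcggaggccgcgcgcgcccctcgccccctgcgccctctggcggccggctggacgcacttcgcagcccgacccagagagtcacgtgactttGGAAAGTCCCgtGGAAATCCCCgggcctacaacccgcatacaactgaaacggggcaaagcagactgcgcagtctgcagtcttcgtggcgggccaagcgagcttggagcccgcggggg
NFKB1: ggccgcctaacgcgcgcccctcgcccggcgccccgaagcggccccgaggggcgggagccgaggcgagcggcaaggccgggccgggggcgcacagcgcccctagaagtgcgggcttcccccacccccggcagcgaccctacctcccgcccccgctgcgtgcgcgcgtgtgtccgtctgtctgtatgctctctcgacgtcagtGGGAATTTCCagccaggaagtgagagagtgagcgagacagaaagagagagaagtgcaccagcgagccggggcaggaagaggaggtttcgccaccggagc
REL: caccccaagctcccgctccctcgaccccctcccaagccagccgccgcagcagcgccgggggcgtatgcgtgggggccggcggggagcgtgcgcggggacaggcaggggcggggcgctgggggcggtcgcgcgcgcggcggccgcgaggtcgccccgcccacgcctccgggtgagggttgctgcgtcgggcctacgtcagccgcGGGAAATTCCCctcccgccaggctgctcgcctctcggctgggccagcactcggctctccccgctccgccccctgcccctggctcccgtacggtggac
Counted from the first base of the match to the start site, the motif lay 81 bases upstream in NFKBIA, 67 and 55 bases upstream in TNFAIP3, and 49 bases upstream in NFKB1. In REL 2 overlapping matches, 1 on each strand, began 47 and 46 bases upstream. NFKBIZ had a match 223 bases upstream, and in BCL3 the same 10 bases matched on both strands, starting 2 bases after the start site. NFKB2 and RELA had none, which says only that these letters are not in these windows. The windows follow the RefSeq start sites, which can differ from the GENCODE gene positions. The window of RELA lies wholly upstream of the gene position given for RELA. The start sites used for BCL3, REL, TNFAIP3 and NFKB1 lie inside the gene positions given for these genes, that of BCL3 the deepest. The genes with a match thus include those with the large falls of NFKBIA and TNFAIP3, the smallest called fall (NFKBIZ) and the gene that was not called (REL). A match is a description of the sequence and not a measured binding site.

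**Figure D3:**
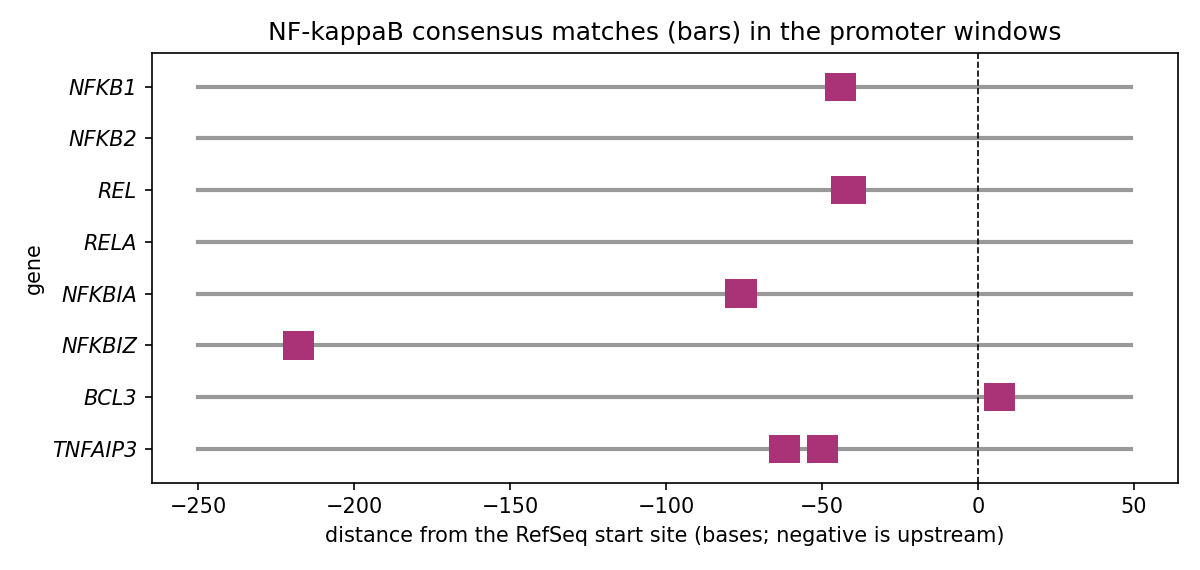
Position of the consensus matches (bars, to scale) in the 300 base promoter windows of 8 genes, with distance from the RefSeq start site in bases. Apart from NFKBIZ, whose match is 223 bases upstream, the matches begin between 81 bases upstream and 2 bases downstream of the start site, and NFKB2 and RELA have none.

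The classical dimer consists of p50, made from the NFKB1 transcript, and p65, encoded by RELA, which carries the transactivation domain. NFKB1 (GRCh37 chr4:103422487-103538459, plus strand) had 95.4, 90.2 and 89.4 CPM in controls against 56.6, 59.5 and 60.2 CPM after knockdown. The groups lay far apart compared with their spread, and the fall to 64.1% of the control level passed the test (log2 fold change -0.64, SE 0.06, adjusted p = 8.6e-08). RELA (chr11:65421070-65430561, minus strand) had 199, 188 and 197 CPM with NC siRNA and 162, 149 and 152 CPM with BNC2 siRNA. The groups did not overlap, and RELA fell to 79.3% (log2 fold change -0.34, SE 0.06, adjusted p = 5.6e-05). The 95% intervals of the 2 fold changes did not overlap, at -0.77 to -0.51 for NFKB1 and -0.46 to -0.21 for RELA. As a ratio within a library, NFKB1 to RELA went from a mean log2 CPM ratio of -1.09 to -1.39, with no overlap between the groups. With 3 libraries against 3, an exact permutation test of a single ratio cannot give a p-value below 0.1.

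RELB and p52, the product of NFKB2, form the dimer of the alternative pathway that is driven by the kinase NIK. RELB (chr19:45504719-45541450, plus strand) fell from 39.7, 45.4 and 41.5 CPM to 28.0, 23.3 and 26.0 CPM. Every BNC2 siRNA library was lower than every NC siRNA library, with 61.1% of the level left (log2 fold change -0.71, SE 0.09, adjusted p = 1.3e-06). NFKB2 (chr10:104153867-104162281, plus strand) fell from 141, 151 and 142 CPM to 117, 115 and 115 CPM, or to 80.1% (log2 fold change -0.32, SE 0.06, adjusted p = 7.9e-05). The fall of NFKB2 was thus closer in size to that of RELA than to that of its partner RELB: the mean log2 ratio of NFKB2 to RELB rose from 1.78 to 2.17 without overlap between the groups, whereas that of NFKB2 to RELA was -0.43 ± 0.10 (SD, n = 3) and -0.41 ± 0.05 (SD, n = 3), with overlap.

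REL encodes c-Rel, a subunit best known from lymphoid cells. It lies at chr2:61108626-61158747 (plus strand) and had 76, 80 and 68 counts (4.28, 4.48 and 4.09 CPM) in controls against 87, 77 and 101 counts (5.06, 4.34 and 6.43 CPM) after knockdown. One BNC2 siRNA library lay within the range of the controls, so the groups overlapped. The log2 fold change of 0.29 (SE 0.17) had a 95% interval of -0.07 to 0.65 and an adjusted p of 0.132, and at this depth a rise of that size was not distinguishable from no change. The value rested on BNC2 siRNA replicate 3: without it the log2 fold change was 0.13 (adjusted p = 0.526), and without replicate 2 of the same group it was 0.42 (adjusted p = 0.0507).

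The cytoplasmic inhibitors NFKBIA and NFKBIE fell by more than any subunit. NFKBIA (chr14:35870285-35873955, minus strand), which encodes IkB-alpha and is the textbook early feedback gene of the pathway, had 152, 182 and 184 CPM with NC siRNA and 72.8, 71.0 and 70.5 CPM with BNC2 siRNA. The knockdown libraries lay close together, whereas NC siRNA replicate 1 was lower than the other controls, and the gap between the groups exceeded both spreads. The log2 fold change was -1.27 (SE 0.07, adjusted p = 1.3e-10), and 6.96% of the genes tested had a lower one. NFKBIE (chr6:44225903-44233525, minus strand), which encodes IkB-epsilon, a further cytoplasmic inhibitor of p65 and c-Rel dimers, had 401, 383 and 394 counts (22.6, 21.5 and 23.7 CPM) with NC siRNA and 100, 103 and 89 counts (5.82, 5.81 and 5.67 CPM) with BNC2 siRNA. All 3 knockdown libraries were thus at about the same level, 25.6% of the controls (log2 fold change -1.97, SE 0.11, adjusted p = 6.0e-11), with 2.96% of the genes tested lower. Relative to NFKBIA in the same library, the mean log2 ratio of NFKBIE went from -2.93 to -3.63, without overlap between the groups. Against RELA in the same library, the mean log2 ratio fell by 0.93 for NFKBIA and by 1.63 for NFKBIE, also without overlap.

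TNFAIP3 encodes A20, an enzyme that edits ubiquitin chains on signalling proteins upstream of IKK and so limits activation. TNFAIP3 (chr6:138188351-138204451, plus strand) had 26.0, 21.8 and 24.9 CPM with NC siRNA and 10.1, 8.80 and 8.60 CPM with BNC2 siRNA. Each knockdown library was below each control, and the log2 fold change was -1.40 (SE 0.11, adjusted p = 4.8e-09), which left 38.0% of the level.

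BCL3 and NFKBIZ are IkB family proteins that act in the nucleus, where they bind p50 or p52 dimers and can raise transcription. BCL3 (chr19:45250962-45263301, plus strand) fell from 53.7, 57.6 and 56.8 CPM to 38.2, 33.3 and 30.7 CPM (log2 fold change -0.72, SE 0.08, adjusted p = 5.6e-07), to 60.8% of the control level. NFKBIZ (chr3:101546835-101579866, plus strand) had 35.7, 32.5 and 31.4 CPM with NC siRNA and 28.5, 29.5 and 26.7 CPM with BNC2 siRNA, so that the groups came close to each other without overlapping. Its log2 fold change of -0.23 (SE 0.08, adjusted p = 0.0163) was the weakest of the 9 calls. It was not called without BNC2 siRNA replicate 3 (log2 fold change -0.20, adjusted p = 0.0632). The mean log2 ratio of BCL3 to NFKBIZ went from 0.76 to 0.27 without overlap between the groups, which is a description, since 3 libraries against 3 cannot give an exact permutation p below 0.1.

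Levels of different genes were compared per length, as CPM per kilobase of exon, using exon lengths of GENCODE. In the NC siRNA libraries the order from high to low was NFKBIA (77.2 ± 8.07, SD, n = 3), RELA (57.5 ± 1.78), NFKB2 (38.2 ± 1.54), BCL3 (29.9 ± 1.09), NFKB1 (20.2 ± 0.714), RELB (18.7 ± 1.28), NFKBIE (8.75 ± 0.439), NFKBIZ (7.93 ± 0.531), TNFAIP3 (4.98 ± 0.445) and REL (0.380 ± 0.0172). Of neighbours in that order, NFKB1 overlapped RELB and NFKBIE overlapped NFKBIZ, and the others did not overlap. In the BNC2 siRNA libraries RELA (45.6 ± 2.10) stood above NFKBIA (32.0 ± 0.525), and NFKBIZ (6.74 ± 0.334) above NFKBIE (2.23 ± 0.0329), with no overlap between neighbours. The other 6 genes kept their places. The annotation used for counting was not GENCODE, so a length may differ from the exons counted, above all for REL with 11287 bases. With the longest transcript of each gene in place of all its exons, each of the 10 genes had the same place among the controls.

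Summed per length, the 5 subunit genes stood at 135, 136 and 134 CPM per kilobase in the NC siRNA libraries and at 104, 98.1 and 100.6 in the BNC2 siRNA libraries. NFKBIA and NFKBIE together stood at 76.7, 89.9 and 91.4 with NC siRNA and at 34.8, 34.0 and 33.8 with BNC2 siRNA. By these levels per length, an estimated 56.7, 66.2 and 68.2 transcripts of NFKBIA and NFKBIE stood against 100 subunit transcripts in the controls. After BNC2 knockdown there were 33.4, 34.7 and 33.6, with no overlap. This ratio depends on the exon lengths used and was not worked out with the longest transcripts. NFKBIB, a cytoplasmic inhibitor gene outside the 10, stood at 13.6, 17.0 and 14.9 CPM per kilobase with NC siRNA and at 18.2, 14.6 and 15.2 with BNC2 siRNA. With NFKBIB added, a choice made after seeing the data, the ratio was 66.8, 78.7 and 79.3 in controls and 50.8, 49.5 and 48.7 after knockdown, still with no overlap. The shares of the single subunits in their sum also shifted. RELA was 43.6%, 40.9% and 43.4% of it with NC siRNA and 46.0%, 44.8% and 44.6% with BNC2 siRNA, whereas NFKB1 went from 15.6%, 14.6% and 14.7% to 12.0%, 13.4% and 13.2%. RELB went from 13.0%, 14.8% and 13.7% to 11.9%, 10.5% and 11.4%, and REL from 0.281%, 0.292% and 0.271% to 0.430%, 0.392% and 0.566%. The groups did not overlap in any of these 4 shares. NFKB2 was 27.6%, 29.4% and 27.9% with NC siRNA and 29.7%, 30.9% and 30.3% with BNC2 siRNA, also without overlap. The 5 shares of a library add up to 100%, so they are not separate observations. Full separation of the groups was also seen in 74.9% of all genes tested. These sums describe RNA in bulk cultures, where fewer expressing cells and less RNA per cell cannot be told apart, and they say nothing of protein.

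**Figure D4:**
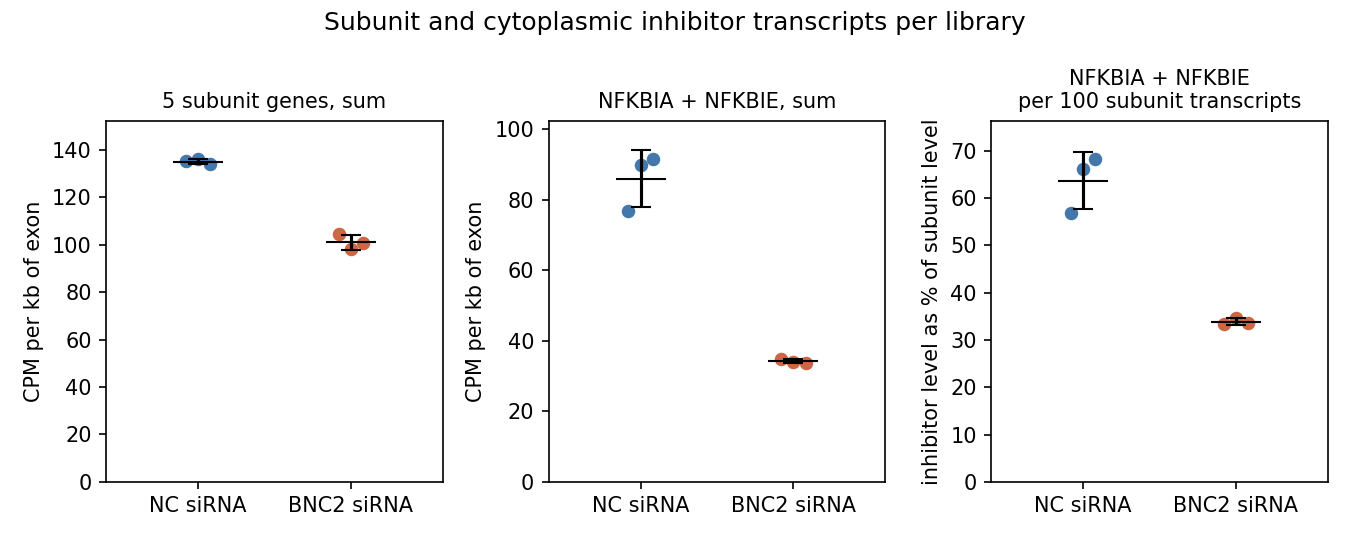
Summed level per library (points) of the 5 subunit genes and of NFKBIA with NFKBIE, in CPM per kilobase of exon, and the inhibitors per 100 subunit transcripts; black lines are the mean and SD of 3 libraries and all axes start at 0. By these levels per length, NFKBIA and NFKBIE per 100 subunit transcripts lie at 56.7 to 68.2 with NC siRNA and at 33.4 to 34.7 with BNC2 siRNA.

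Transcripts of the upstream regulators of NF-kappaB were called about as often as genes in general, of which 72.9% were called, 36.6% higher and 36.2% lower. Among 10 genes of IKK kinases and of proteins that activate them, 3 rose and 4 fell, CHUK, MAP3K7 and IKBKG failed the test, and the median log2 fold change was -0.05. These counts lie near the shares over all genes and are no result about the kinases as a group. TAB3, a ubiquitin-binding partner of the kinase TAK1, fell from 97.8 ± 10.5 to 59.5 ± 2.99 CPM (SD, n = 3; log2 fold change -0.72, SE 0.08, adjusted p = 2.8e-07), and TBK1, an IKK-related kinase, from 56.3 ± 0.640 to 34.2 ± 2.18 CPM (log2 fold change -0.72, adjusted p = 1.1e-07). TAB1, another partner of TAK1, rose by 0.56 on the log2 scale (adjusted p = 2.9e-05). IKBKE, an IKK-related kinase, rose by 0.35 (adjusted p = 0.0258), but it was not called without BNC2 siRNA replicate 1, NC siRNA replicate 1 or NC siRNA replicate 2 (adjusted p = 0.108, 0.132 and 0.0878), nor with scaling by total counts only (0.0677). Of 15 genes of receptor adaptors and ubiquitin ligases, 6 rose, 5 fell and 4 were not called (median 0.04), again near the shares over all genes. SHARPIN, a part of the linear ubiquitin ligase, and TRAF2 rose by 0.73 (adjusted p = 3.9e-08) and 0.54 on the log2 scale (adjusted p = 9.6e-07). TRAF1, an adaptor that is itself an NF-kappaB target, and the kinase IRAK4 fell by 0.66 on the log2 scale (adjusted p = 7.3e-08) and 0.57 (adjusted p = 0.00041).

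Of 14 receptors of the pathway only 6 had enough counts to be tested, and 3 rose, 2 fell and LTBR was not called (median 0.22). With 6 genes, this cannot be told from the 36.6% higher and 36.2% lower among all genes tested. IL1RAP, the accessory chain of the interleukin-1 receptor, rose from 101.8 ± 10.3 to 214 ± 5.17 CPM (SD, n = 3; log2 fold change 1.07, SE 0.07, adjusted p = 5.1e-10). TLR6, a Toll-like receptor of bacterial lipopeptides, rose from 1.49 ± 0.218 to 8.04 ± 1.58 CPM (log2 fold change 2.42, SE 0.20, adjusted p = 1.6e-08). TNFRSF1A, the main TNF receptor, fell slightly, by 0.21 on the log2 scale (adjusted p = 0.00275). IL1R1, the signalling chain of the interleukin-1 receptor, fell by 0.14 on the log2 scale (adjusted p = 0.0433), but was not called in 8 of 14 alternatives, among them those without BNC2 siRNA replicate 1, BNC2 siRNA replicate 2 or NC siRNA replicate 2 (adjusted p = 0.0901, 0.184 and 0.0589).

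Of 16 genes of further inhibitors of the pathway, among them IkB proteins, deubiquitinases and A20 partners, 15 were tested. Of these 15, 2 rose, 7 fell and 6 were not called (median log2 fold change -0.16), against 36.6% higher and 36.2% lower among all genes tested. The 6 include NFKBIB, the gene of IkB-beta, at 32.4 ± 3.66 CPM with NC siRNA and 34.1 ± 4.05 CPM with BNC2 siRNA (SD, n = 3; log2 fold change 0.07, SE 0.10, adjusted p = 0.512), and NFKBID, at 6.39 ± 0.638 and 5.57 ± 0.480 CPM (adjusted p = 0.221). These genes were named after their values had been seen. TNIP2, an A20-binding inhibitor, fell from 28.0 ± 1.55 to 11.1 ± 1.29 CPM (log2 fold change -1.33, SE 0.10, adjusted p = 4.5e-09), and COMMD1, which promotes the breakdown of RELA, from 20.0 ± 3.57 to 10.0 ± 0.371 CPM (log2 fold change -0.99, adjusted p = 2.3e-06). TNIP1, a paralogue of TNIP2, and the ubiquitin ligase ITCH rose by 0.28 (adjusted p = 0.000743) and 0.53 on the log2 scale (adjusted p = 7.9e-07).

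Most of the tested textbook targets of NF-kappaB fell. Of 31 target genes, 21 were tested, of which 19 fell, BCL2L1 rose and GADD45B failed the test, with a median of -1.49 on the log2 scale. IL1B and CCL20 exceeded 1 CPM in controls only, so they entered the test through the group in which they were high. Of the other 19, 17 fell (median -1.43), against 36.2% of all genes tested. With 1 control library left out, IL1B and CCL20 could not exceed 1 CPM in 3 libraries and were not tested. In these fits 17 to 18 target genes were called lower. The list was written with earlier results on cytokines and MMP9 in these libraries known, and TRAF1 and BIRC3 also stand in the list of adaptors. IL1B, an inflammatory cytokine, had 2118, 2280 and 2223 counts in controls against 3, 0 and 0 after knockdown. MMP9, a gelatinase, fell from 104 ± 6.31 to 3.35 ± 0.269 CPM (SD, n = 3; adjusted p = 3.0e-16). BCL2L1, the survival factor BCL-XL, rose by 0.28 on the log2 scale (adjusted p = 0.000316). Among targets named after their values had been seen, SOD2, mitochondrial superoxide dismutase, fell from 295 ± 11.2 to 81.7 ± 1.46 CPM (log2 fold change -1.85, SE 0.06, adjusted p = 8.0e-14) and the adhesion molecule ICAM1 from 87.5 ± 2.97 to 18.4 ± 0.0970 CPM (log2 fold change -2.25, SE 0.07, adjusted p = 9.1e-14). The consensus motif occurred in 13 of 26 promoter windows available for the target genes, 3 of 13 for adaptors and ubiquitin ligases, 1 of 16 for the other inhibitors, 0 of 9 for the IKK kinases and 0 of 11 for the receptors, against 11.3% of all windows.

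**Figure D5:**
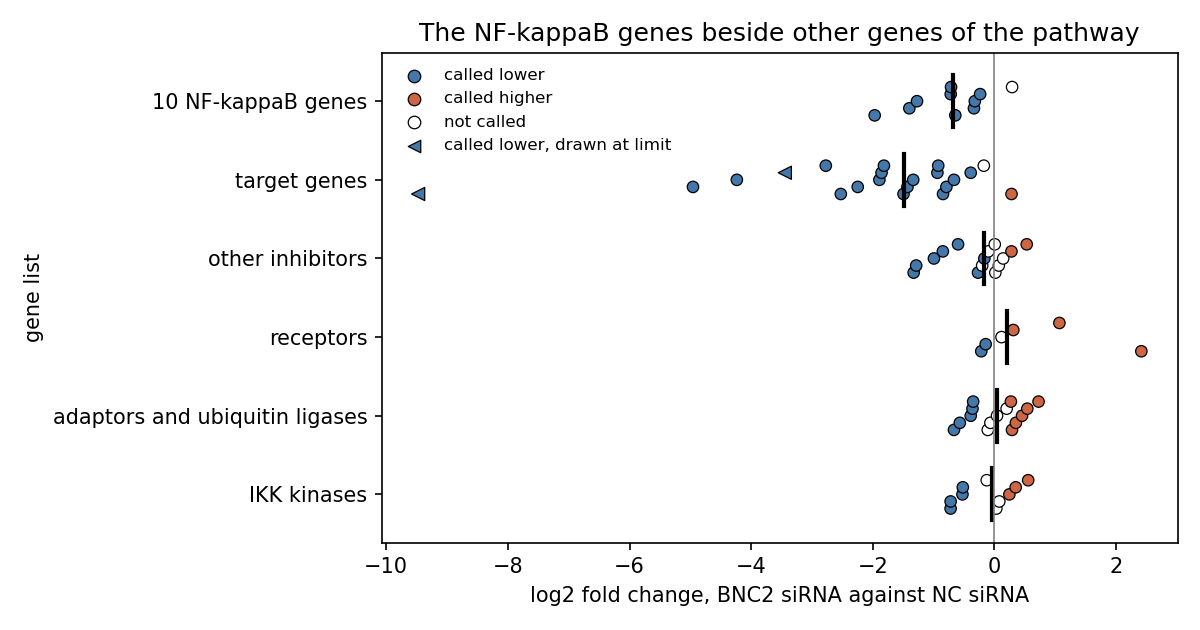
Log2 fold change (BNC2 siRNA against NC siRNA) of each tested gene in 5 lists of pathway genes and of the 10 NF-kappaB genes; vertical bars are list medians, and triangles mark IL1B and CCL20, drawn at the fall that 3 counts in each BNC2 siRNA library would give. The target genes (median -1.49) and the 10 NF-kappaB genes (median -0.68) lie mostly to the left of 0, and the kinases and adaptors on both sides of it.

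Many genes shared the step between the groups, so that likeness to 1 member is not specific. Over the 6 libraries the log2 CPM of NFKB1 was most like that of RERE, TBC1D15 and KIDINS220 (Pearson r of 0.9997, 0.9995 and 0.9995), and 2141 of the 12185 other genes had an r above 0.95. RELA was most like EPS15L1, SNORA21 and CHRAC1 (0.9994, 0.998 and 0.997). Reads on the opposite strand of the 10 genes, which were not part of the counts tested, came to between 0.463% (TNFAIP3) and 1.14% (BCL3) of the reads counted on the gene.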

How the data were processed

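BT549 cells were sequenced as 3 NC siRNA and 3 BNC2 siRNA libraries, grouped by the treatment in the labels. The authors aligned single-end reads to hg19 with STAR 2.6.1d and the iGenomes UCSC annotation and deposited raw read counts per gene. The deposited counts equal the reverse-strand column of the library tables. Reads assigned to no gene (37.7% to 41.1% of a library) were left out.

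With R 4.3.3, edgeR 4.0.16 and DESeq2 1.42.0, genes above 1 CPM in 3 or more libraries were kept, scaled by TMM (factors 0.972 to 1.04) and tested by edgeR's quasi-likelihood method, with no block for replicate numbers, adjusted by Benjamini-Hochberg over 12186 genes. A gene was called at an adjusted p of at most 0.05. The SE is the log2 fold change divided by the square root of F, and 95% intervals use the degrees of freedom of the fit. The quasi-likelihood fit was tested on simulated counts, and the other steps were not. Genes named were the 10 members, BNC2 and, per list, the 2 largest rises and falls called without overlap and with at least 5 CPM in the higher group; others are marked. The study's own test was edgeR's likelihood ratio test, an alternative here. The members and lists were chosen with earlier results of these data known. Positions and lengths are from GENCODE release 44 on GRCh37, the assembly of hg19, and promoter windows from RefSeq (GRCh38.p14), located in GRCh37 by exact match. The result of 1 marker gene is not reported here.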

Additional observations from a re-analysis of the deposited data

How the results depend on the processing

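There were 14 alternatives: other tests (DESeq2, edgeR's likelihood ratio), other scaling (DESeq2's factors, library totals), other filters (none, filterByExpr), counts of both strands, a replicate block, and 6 fits that each left out 1 library. The fall of NFKB1, NFKB2, RELA, RELB, NFKBIA, NFKBIE, BCL3 and TNFAIP3 was called in all 14, and REL in none, with its log2 fold change between 0.13 and 0.42. NFKBIZ was lost in 1, without BNC2 siRNA replicate 3, so the number called lower lay between 8 and 9. The number of receptors called lower was 1 instead of 2 with DESeq2, with a replicate block and with counts of both strands, and between 1 and 2 with 1 library left out, where IL1R1 lost its call. With no filter on low counts 3 receptors were called lower and 4 higher, against 2 and 3. With the replicate block 9 of the 10 genes were still called lower and 8400 genes were called in all, against 8879. Whether the numbers pair the samples cannot be settled with 3 libraries per group. The deviations of same-numbered libraries correlated at -0.26, -0.09 and -0.15, and those of differently numbered libraries at -0.10 to 0.22. Scaling by total counts only moved the median of all genes to -0.07 and that of the 10 genes to -0.75. Depth limits REL, with at most 101 counts in a library.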

Other observations

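Of the pathway lists, 19 genes had too few counts to be tested, and they are given as counts with no test. In 3 of the 19 each knockdown library was below each control. The share of such genes among all genes below the filter was not determined. TNFRSF1B, a TNF receptor, had 31, 29 and 16 counts in controls against 1, 0 and 0 after knockdown. The chemokine CCL2 had 8, 18 and 21 counts with NC siRNA and none with BNC2 siRNA, and BCL2A1, a survival factor of the BCL2 family, had 8, 13 and 15 counts with NC siRNA and 1, 0 and 0 with BNC2 siRNA. The other 16 overlapped between the groups or were at 0. Summed over the libraries of a group, TLR3 had 32 counts in controls and 32 after knockdown, TNFRSF11A 38 and 31, CSF2 34 and 16, TLR4 28 and 7, and TNFAIP2 14 and 8. The sums were 7 and 4 for TLR1, 7 and 1 for CD40, 6 and 6 for PTGS2, 3 and 3 for CXCL10, and 3 and 8 for TLR5. VCAM1 had 5 counts, IRAK3 had 3, TNF had 2 and TLR2 had 1 in controls, with none after knockdown, and IL1A and LTB had no count in any library.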
